A study of Mus musculus with 4 samples.

Results

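Chaperones and other proteins of the endoplasmic reticulum (ER) were followed through their messenger RNA in mouse liver: Creld2, Hspa5, Hsp90b1, Pdia3, Pdia4, Pdia6, Calr, Sdf2l1 and Herpud1. They were taken by name, as every probe set of the Affymetrix MG_U74Av2 GeneChip that the platform annotation gives to 1 of these 9 genes alone. The choice of genes was made with earlier results of these data known. Of the 9 genes, 8 had a probe set, with 10 probe sets in all, and 7 were measured, with 9 probe sets Present on all 4 arrays. Present is the detection call of the deposited tables, and a gene counted as measured when its brightest probe set was Present on at least 1 array. Across the whole array there were 12422 probe sets without the controls, 8251 genes with a single symbol and 5007 measured genes.

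The groups were livers of ADX mice at ZT14, ADX mice at ZT2, sham-operated mice at ZT14 and sham-operated mice at ZT2, with 1 array each. ZT, zeitgeber time, counts hours from lights on, so ZT2 is early day and ZT14 early night. All mice were male and of the C57BL/6 strain. ADX is the surgical removal of both adrenal glands, here from the back under ketamine and xylazine, and it takes away the main source of circulating glucocorticoids. ADX mice ate standard chow and drank saline, whereas sham mice had the same kind of chow with plain water, so surgery and salt intake cannot be told apart. The labels do not give the animals' age, the time since surgery or the number of animals per array. The design crosses operation and time, which poses the question of which ZT14 against ZT2 differences are seen without the adrenal glands.

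Hepatocytes secrete most plasma proteins, and these fold in the ER with the help of chaperones. When unfolded proteins build up, the unfolded protein response, carried by the sensors Ire1, Perk and Atf6, raises the transcription of the chaperone genes. Xbp1 and Atf6 act on such promoters through the ER stress response element (ERSE), which joins a CCAAT box to the letters CCACG, and through the shorter ERSE-II.

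The promoters of the 7 measured genes are printed to show which of them carry these elements. Each runs from 250 bases before to 50 bases after the gene start, is taken from RefSeq on GRCm38.p6 and is written 5′ to 3′ on the gene's strand. Capitals mark the outer letters of an exact ERSE (CCAAT, 9 bases, CCACG) or ERSE-II (ATTGG, 1 base, CCACG) on either strand. The regions are chr15:88819396-88819695 (plus strand) for Creld2, chr8:94386179-94386478 (plus) for Herpud1, chr2:34771840-34772139 (plus) for Hspa5, chr10:86705395-86705694 (minus) for Hsp90b1, chr12:17266339-17266638 (plus) for Pdia6, chr2:121413652-121413951 (plus) for Pdia3 and chr6:47813463-47813762 (minus) for Pdia4.
Creld2: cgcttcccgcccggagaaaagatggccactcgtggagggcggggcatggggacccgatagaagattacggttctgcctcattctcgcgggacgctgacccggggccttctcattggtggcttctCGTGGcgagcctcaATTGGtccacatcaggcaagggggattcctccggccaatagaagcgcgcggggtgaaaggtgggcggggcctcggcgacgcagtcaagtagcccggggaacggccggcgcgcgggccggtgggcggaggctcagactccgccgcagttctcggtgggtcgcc
Herpud1: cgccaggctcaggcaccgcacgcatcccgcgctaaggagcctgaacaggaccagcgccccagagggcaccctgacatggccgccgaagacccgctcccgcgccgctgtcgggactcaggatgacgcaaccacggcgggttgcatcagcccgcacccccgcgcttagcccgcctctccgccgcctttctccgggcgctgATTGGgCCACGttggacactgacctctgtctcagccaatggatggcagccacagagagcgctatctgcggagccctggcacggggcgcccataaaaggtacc
Hspa5: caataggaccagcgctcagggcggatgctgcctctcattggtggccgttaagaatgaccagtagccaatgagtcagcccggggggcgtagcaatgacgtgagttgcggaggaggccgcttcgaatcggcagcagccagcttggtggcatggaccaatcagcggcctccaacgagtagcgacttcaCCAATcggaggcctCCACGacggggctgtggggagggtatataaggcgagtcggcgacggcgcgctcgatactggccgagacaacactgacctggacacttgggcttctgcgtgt
Hsp90b1: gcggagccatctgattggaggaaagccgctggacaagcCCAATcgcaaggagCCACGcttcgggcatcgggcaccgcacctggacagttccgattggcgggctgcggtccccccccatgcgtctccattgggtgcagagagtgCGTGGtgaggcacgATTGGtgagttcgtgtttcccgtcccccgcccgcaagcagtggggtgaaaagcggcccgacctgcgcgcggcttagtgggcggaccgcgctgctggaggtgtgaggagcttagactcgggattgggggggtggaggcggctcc
Pdia6: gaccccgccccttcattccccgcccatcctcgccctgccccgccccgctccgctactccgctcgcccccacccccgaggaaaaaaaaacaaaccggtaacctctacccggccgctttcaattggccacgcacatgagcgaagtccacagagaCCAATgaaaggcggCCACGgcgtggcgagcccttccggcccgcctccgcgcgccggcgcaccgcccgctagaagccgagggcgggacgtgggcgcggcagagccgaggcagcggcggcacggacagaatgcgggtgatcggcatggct
Pdia3: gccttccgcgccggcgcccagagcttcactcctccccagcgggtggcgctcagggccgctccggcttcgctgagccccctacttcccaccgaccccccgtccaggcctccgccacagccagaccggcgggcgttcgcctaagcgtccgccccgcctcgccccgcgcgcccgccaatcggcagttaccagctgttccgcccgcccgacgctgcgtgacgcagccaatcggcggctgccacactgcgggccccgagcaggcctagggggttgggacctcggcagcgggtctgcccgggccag
Pdia4: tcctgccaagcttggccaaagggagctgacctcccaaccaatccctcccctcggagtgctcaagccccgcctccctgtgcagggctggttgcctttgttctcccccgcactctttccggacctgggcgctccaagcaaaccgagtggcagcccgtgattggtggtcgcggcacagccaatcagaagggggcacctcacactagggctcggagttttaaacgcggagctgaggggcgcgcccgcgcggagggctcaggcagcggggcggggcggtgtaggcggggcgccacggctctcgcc

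All 9 genes had a promoter in the RefSeq table. An exact ERSE was found in 5 of the 9, namely Creld2, Hspa5, Hsp90b1, Pdia6 and Calr, against 39 of 32851 mouse promoters of the same length (0.119%). In Creld2 it reads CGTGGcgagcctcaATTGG, on the opposite strand, at bases -126 to -108 from the start. Hspa5 has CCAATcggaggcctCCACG at -65 to -47, and Pdia6 has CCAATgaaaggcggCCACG at -98 to -80. The Hsp90b1 window holds an ERSE on each strand, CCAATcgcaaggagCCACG at -212 to -194 and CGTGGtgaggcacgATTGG at -107 to -89. Herpud1 carries the ERSE-II match ATTGGgCCACG at -52 to -42, a form seen in 12 of the 32851 promoters (0.0365%). Pdia3, Pdia4 and Sdf2l1 had neither element in the exact form searched. CCAAT alone, which every ERSE contains, was in 9 of 9 promoters against 37.4% of all, and CCACG alone in 8 of 9 against 32.8%. The glucocorticoid element, searched as GNACA, 3 bases and TGTNC on both strands, was in 0 of the 9 windows and in 0.475% of all promoters. The 39 promoters with an ERSE and the 12 with an ERSE-II include those of the 9 genes themselves. Both elements were already known to act on promoters of such genes. Their shares thus describe the 9 genes and are neither a test nor separate evidence. A match describes letters and is neither a tested binding site nor a cause, and a missing match says only that these letters are not in the window.

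Signals are the deposited intensities multiplied by a factor of 0.925 to 1.07 per array to a common trimmed mean. Present calls numbered 5543 to 5865 per array, and the ratio of 3′ to 5′ actin signal was 1.69 to 1.89. The 6 hepatocyte marker genes on the array were Present on all arrays, with summed signals of 25494 units (ADX ZT2) to 26599.7 units (sham ZT14). With a single array in each group there is no replicate to check any difference against, and the number of arrays limits the precision. Differences are given as log2 of the first group named over the second. Signals of different probe sets share no scale, so levels were compared only within a probe set. In whole liver, fewer cells of a type and less RNA per cell cannot be told apart.

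**Figure D1:**
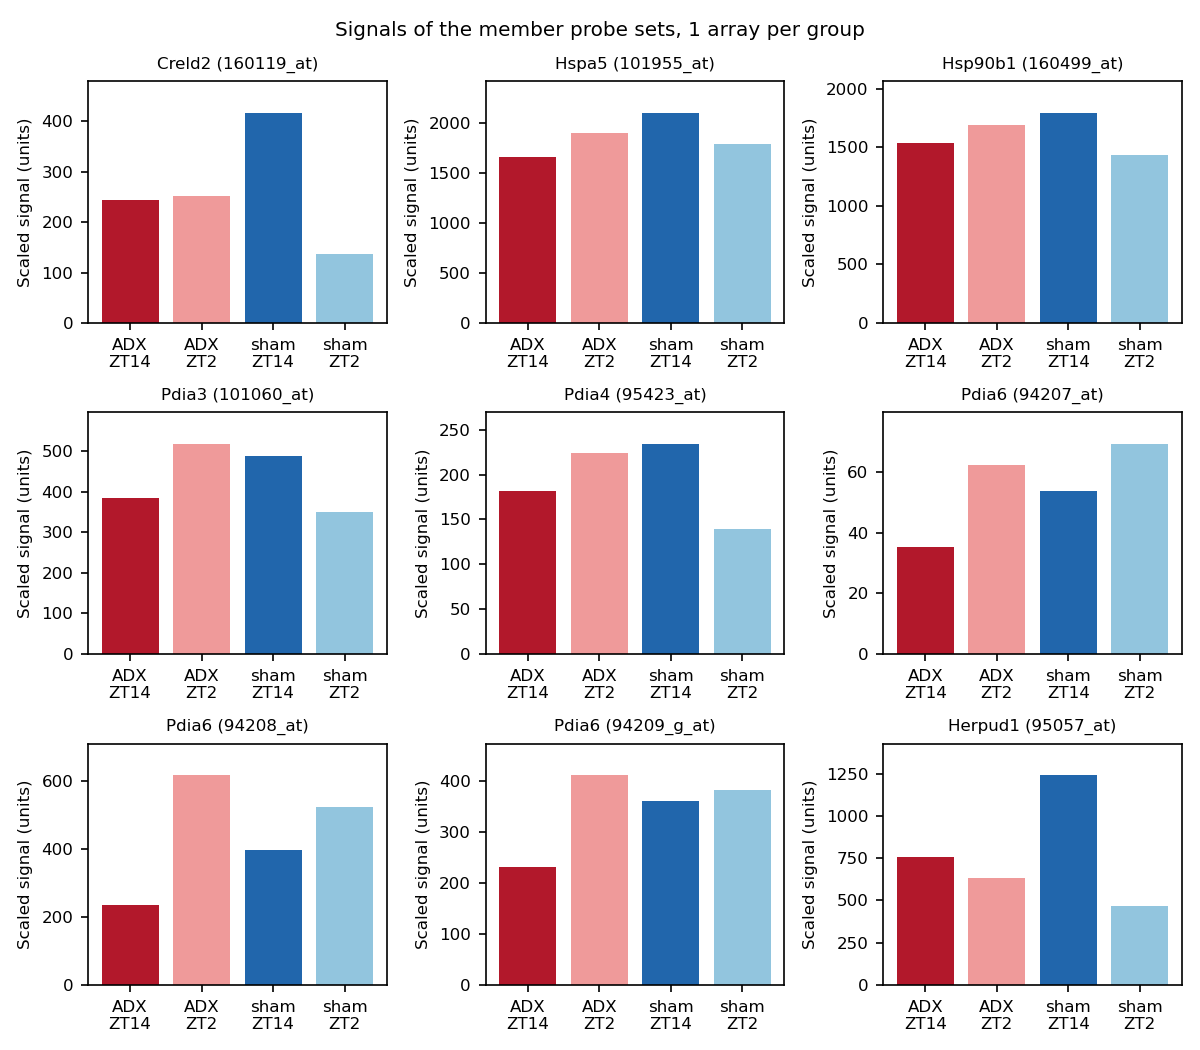
Scaled signal (units, linear axis from 0) of the 9 measured probe sets on the 4 arrays, 1 bar per array, with ADX in red and sham in blue and ZT14 in the darker shade. Creld2 and Herpud1 stand highest on the sham ZT14 array and lowest on the sham ZT2 array, and all 3 Pdia6 probe sets stand lowest on the ADX ZT14 array.

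Creld2, an ER protein with disulfide isomerase activity whose transcript is induced by ER stress, had the widest day-night difference in sham liver among the 7 measured genes, and almost none without the adrenals. Its probe set 160119_at gave 243 units in ADX at ZT14 and 251 in ADX at ZT2, against 416 in sham at ZT14 and 136 in sham at ZT2. The sham arrays held both extremes, and the ADX arrays lay close together between them. The night level was 3.06-fold the day level in sham (log2 1.61), whereas ADX gave a log2 difference of -0.05. ADX over sham was 1.84-fold higher at ZT2 (log2 0.88) and 1.71-fold lower at ZT14 (log2 -0.78). Among the 3889 genes Present on all 4 arrays, 20 had a sham ZT14 over ZT2 difference as large, counting Creld2 itself. The gene lies at chr15:88819646-88826681 on GRCm38.p6.

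Herpud1, a membrane protein that recruits the machinery of ER-associated degradation, had the same order of sham arrays. Probe set 95057_at read 759 units in ADX at ZT14 and 633 in ADX at ZT2, against 1241 in sham at ZT14 and 469 in sham at ZT2. Its sham night level was 2.65-fold the day level (log2 1.40), and in ADX the log2 difference was 0.26. ADX liver was above sham at ZT2 (log2 0.43) and 1.63-fold below it at ZT14 (log2 -0.71). Herpud1 was the single gene of the 7 with a night level above the day level in both operations. It lies at chr8:94386429-94395371.

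Hspa5 (BiP, the Hsp70 chaperone of the ER, which also holds the stress sensors inactive) moved far less. Probe set 101955_at gave 1662 units in ADX at ZT14 and 1893 in ADX at ZT2, against 2096 in sham at ZT14 and 1785 in sham at ZT2. Night over day was -0.19 in ADX and 0.23 in sham on the log2 scale, and ADX over sham was -0.34 at ZT14. At ZT2 the ADX over sham difference was 0.08 after scaling and -0.09 with the signals as deposited, so its direction there is set by the scaling. Hspa5 lies at chr2:34772090-34776529.

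Hsp90b1 (Grp94, the Hsp90 of the ER) gave values in the same order of sham arrays. Its probe set 160499_at read 1533 units in ADX at ZT14 and 1692 in ADX at ZT2, against 1792 in sham at ZT14 and 1437 in sham at ZT2. The log2 night over day difference was -0.14 in ADX and 0.32 in sham. ADX over sham was 0.24 at ZT2 and -0.23 at ZT14. All 4 differences of Hsp90b1, like those of Hspa5, were under 1.5-fold. The gene lies at chr10:86690841-86705444.

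Pdia3, Pdia4 and Pdia6 are protein disulfide isomerases, which form and shuffle the disulfide bonds of secreted proteins. All 3 were lower at night in ADX, whereas in sham Pdia3 and Pdia4 were higher at night and Pdia6 was lower. Pdia3 (ERp57), which works on glycoproteins with calnexin and calreticulin, had 384 units in ADX at ZT14 and 518 in ADX at ZT2, against 487 in sham at ZT14 and 350.4 in sham at ZT2 (probe set 101060_at). Its night over day log2 difference was -0.43 in ADX and 0.48 in sham, opposite in sign, and the sham ZT14 and ADX ZT2 arrays were the high ones. ADX over sham was 0.56 at ZT2 and -0.34 at ZT14. Pdia4 (ERp72) followed with 181 units in ADX at ZT14 and 224 in ADX at ZT2, against 234 in sham at ZT14 and 139 in sham at ZT2 (95423_at). Here the night level was 1.68-fold the day level in sham (log2 0.75), while ADX gave a log2 of -0.31. At ZT2 Pdia4 was 1.61-fold higher in ADX than in sham (log2 0.69), and at ZT14 the log2 difference was -0.37. Pdia3 lies at chr2:121413902-121438687 and Pdia4 at chr6:47796141-47813512.

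Pdia6 (P5), another isomerase and a partner of Hspa5, was lower at night than by day in both operations. The brightest of its probe sets, 94208_at, gave 236 units in ADX at ZT14 and 618 in ADX at ZT2, against 398 in sham at ZT14 and 524 in sham at ZT2. The ADX night level was 2.61-fold below the ADX day level (log2 -1.39), a fall matched or passed by 14 of the 3889 genes including Pdia6, and the sham difference was -0.40. ADX over sham was 0.24 at ZT2 and -0.75 at ZT14. The other probe sets gave the same order for night and day with smaller differences. 94209_g_at read 230.5 units in ADX at ZT14 and 411 in ADX at ZT2, against 359.9 in sham at ZT14 and 382 in sham at ZT2 (log2 night over day -0.83 in ADX and -0.09 in sham). 94207_at read 35.1 units in ADX at ZT14 and 62.3 in ADX at ZT2, against 53.7 in sham at ZT14 and 69.2 in sham at ZT2 (log2 -0.83 in ADX and -0.37 in sham). The probe sets disagreed for ADX over sham at ZT2, where 94207_at gave -0.15 and 94209_g_at gave 0.10, the last ranging from -0.07 to 0.13 over the scalings and floors tried. Probe sets 94208_at and 94209_g_at stand for the same cDNA accession, so they are not independent readings. Pdia6 lies at chr12:17266589-17284785.

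Calr, the calcium-binding lectin chaperone calreticulin (chr8:84842088-84846931), had the probe set 93523_at, which was Absent on all 4 arrays with signals of 1.76 to 5.87 units. Folds from it would rest on Absent signals and are left out, and it gives no level for a gene that hepatocytes are known to express. Sdf2l1, a partner of the ER Hsp40 Dnajb11 (chr16:17130138-17132383), had no single-symbol probe set and was not analysed here.

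**Figure D2:**
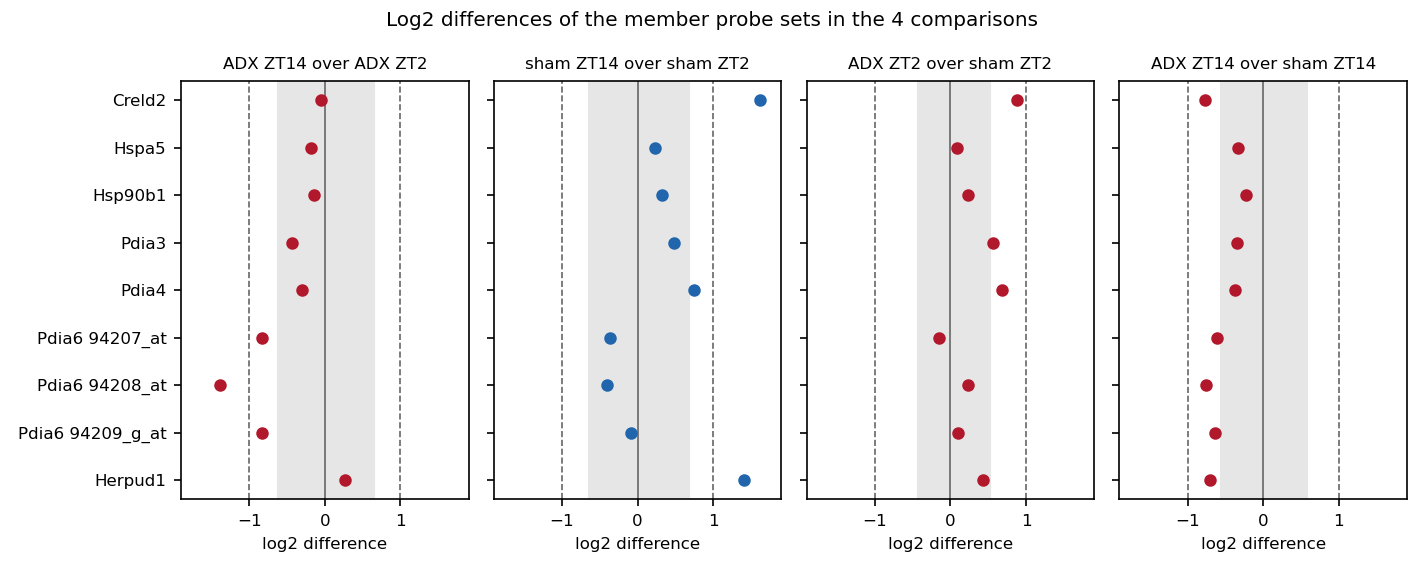
Log2 differences (x axis) of the 9 measured probe sets in the 4 comparisons, 1 panel each, with dashed lines at 2-fold and a grey band from the 5th to the 95th percentile of the 3889 genes Present on all 4 arrays. Creld2 and Herpud1 lie beyond 2-fold in the sham panel, Pdia6 94208_at lies beyond it in the ADX panel, and no point reaches it in the panels of ADX over sham.

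Counted by a size rule, at least 2-fold and Present on the brighter array, few of the 7 measured genes passed. In ADX ZT14 over ADX ZT2, 0 were higher and 1 was lower (Pdia6), where 2.54% and 2.1% of all 5007 measured genes were higher and lower. Sham ZT14 over sham ZT2 had 2 higher (Creld2 and Herpud1) and 0 lower, against 3% and 2.2% of all genes. For ADX ZT2 over sham ZT2 the counts were 0 and 0, with a background of 1.42% higher and 0.739% lower. ADX ZT14 over sham ZT14 likewise gave 0 and 0, with 1.86% higher and 1.28% lower in all genes.

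A looser size of 1.5-fold took in more of the 7 genes, though neither Hspa5 nor Hsp90b1. Pdia6 remained the single gene lower in ADX ZT14 over ADX ZT2, with 0 higher (background 7.25% lower and 7.89% higher). Creld2, Pdia4 and Herpud1 were higher in sham ZT14 over sham ZT2, 3 of 7, with 0 lower (background 8.27% higher and 7.57% lower). Creld2 and Pdia4 were higher in ADX ZT2 over sham ZT2, 2 of 7, with 0 lower (background 5.69% and 3.3%). Creld2, Pdia6 and Herpud1 were lower in ADX ZT14 over sham ZT14, 3 of 7, with 0 higher (background 5.19% lower and 6.73% higher). All 4 comparisons reuse the same 4 arrays, so they are not separate evidence. Because the genes were chosen with earlier results known, these counts describe them and test nothing against the background.

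The median log2 difference of the 7 genes was -0.19 in ADX ZT14 over ADX ZT2 (range -1.39 to 0.26), beside 0.01 for all measured genes. It was 0.48 in sham ZT14 over sham ZT2 (range -0.40 to 1.61), beside -0.00 for all. ADX ZT2 over sham ZT2 gave 0.43 (range 0.08 to 0.88) beside 0.01, and ADX ZT14 over sham ZT14 gave -0.37 (range -0.78 to -0.23) beside 0.03. All 7 genes were thus above sham in ADX liver at ZT2 and below it at ZT14 by their brightest probe set, except that Hspa5 turned to below at ZT2 with signals as deposited. The same pair of directions was found in 22.3% of the 3889 genes Present on all 4 arrays.

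The ADX and sham day-night pairs share no array, and their difference is the log2 night over day value in ADX minus that in sham. It was -1.66 for Creld2, -1.14 for Herpud1, -1.05 for Pdia4, -0.99 for Pdia6, -0.91 for Pdia3, -0.46 for Hsp90b1 and -0.42 for Hspa5. All 7 were negative, as were 48.5% of the 3889 genes. For the 7 this sign follows from the directions above, because the value equals ADX over sham at ZT14 minus ADX over sham at ZT2. It is therefore no separate result. The 7 genes had a median of -0.99 beside 0.01 for all 3889. From the 5th to the 95th percentile the genes ran from -0.74 to 0.69. Creld2, Pdia4 and Herpud1, 3 of 7, had a difference of at least 2-fold in that direction and 0 in the other, where 1.85% and 1.44% of genes did. The 7 genes were chosen with earlier results of these data known, so these shares are a description and not a test. With 4 single arrays this difference has no error estimate.

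**Figure D3:**
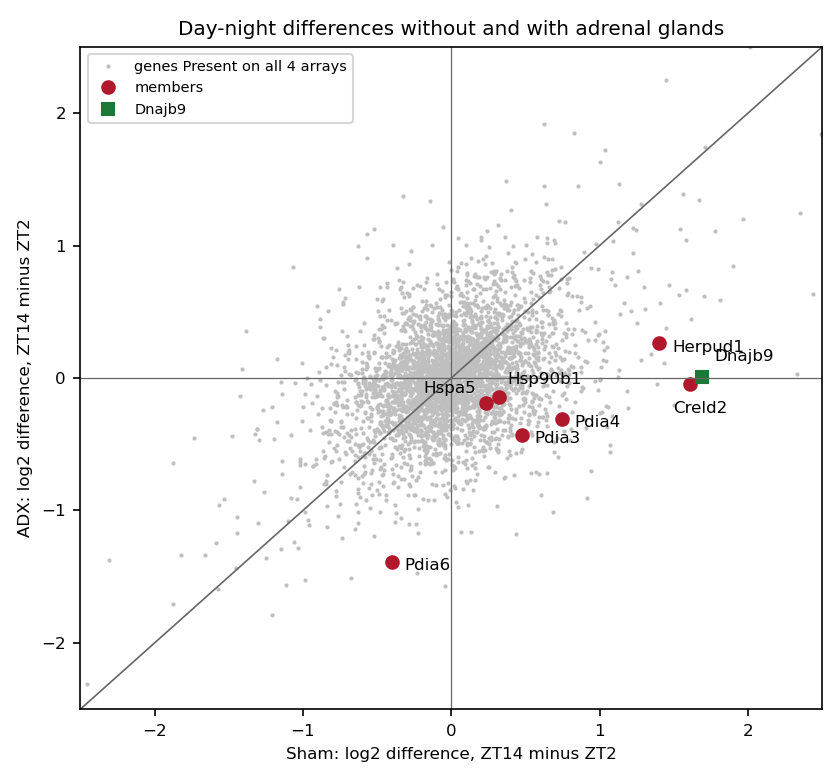
Log2 ZT14 minus ZT2 difference in ADX liver (y axis) against that in sham liver (x axis) for genes Present on all 4 arrays (grey), the 7 measured ER genes (red) and Dnajb9 (green), with the line of equal differences. All 7 red points lie below the line, and 8 of the 3889 genes fall outside the axes, which end at 2.5 on the log2 scale.

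Markers of other cell types were read beside these differences, and their part in the result was not tested. Sums are over the marker genes that were measured. Of 6 exocrine pancreas genes on the array, Ctrb1, Cela2a, Reg1 and Pnliprp1 were Absent on every array. The other 2, Cela1 and Cel, summed to 127 units in ADX at ZT14 and 163 in ADX at ZT2, against 102 in sham at ZT14 and 148 in sham at ZT2, and Cel was Present on the sham ZT14 array alone. Plasma cell and immune markers, 6 of 7 measured, summed to 398 units in ADX at ZT14 and 312 in ADX at ZT2, against 299 in sham at ZT14 and 371 in sham at ZT2, of which Cd74 made up the greatest share. Kupffer cell markers, 7 of 8 measured, stood at 1084 units in ADX at ZT14 and 1179 in ADX at ZT2, against 1010.3 in sham at ZT14 and 1135 in sham at ZT2. Endothelial and stellate markers, 6 of 8 measured, gave 196 units in ADX at ZT14 and 181 in ADX at ZT2, against 155 in sham at ZT14 and 168 in sham at ZT2, while Kdr among them was highest on sham ZT14. The red cell sum, from 2 of 3 genes and mostly Hba-a1, was 1959.7 units in ADX at ZT14 and 1468 in ADX at ZT2, against 1052 in sham at ZT14 and 1755 in sham at ZT2. Of 6 adipose and muscle genes Fabp4 alone was Present, at 5.55 to 10.8 units, highest on sham ZT14.

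Time and operation effects were also estimated together, without an interaction, by limma over the 5872 probe sets that were Present on 2 or more arrays, leaving 1 residual degree of freedom. For ZT14 minus ZT2, 0 of the 9 probe sets passed a Benjamini-Hochberg adjusted p of 0.05, where 2 of all probe sets (0.0341%) did. At an unadjusted p under 0.05 there were 2 of 9, both of Pdia6, against 13.2% of all. The Pdia6 estimate for 94208_at was -0.89 (SE 0.29, limma adjusted p = 0.354), and Herpud1 had 0.83 (SE 0.32, limma adjusted p = 0.403). Creld2 had a time effect of 0.78 (SE 0.44, limma adjusted p = 0.516), its error widened by the unlike ADX and sham pairs. For ADX minus sham, 0 of 9 passed the adjusted threshold, beside 0% of all probe sets, and 0 of 9 passed at an unadjusted p under 0.05, beside 5.6% of all. The 2 arrays of a time differ in operation, so none is a replicate of another. The 1 residual degree of freedom holds any unlike day-night difference of the ADX and sham pairs together with array scatter, which may be technical. The p-values weigh each effect against that mixture and do not measure spread between animals. The additive form cannot show a day-night difference that depends on the operation.

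Other genes of the secretory pathway were read from 5 lists, chosen with results of these data known. Among other ER folding factors, 30 of 39 were measured, and 1 passed 2-fold in any comparison, the Hsp40 cochaperone Dnajb9, higher in sham ZT14 over sham ZT2. In that comparison 3% of all measured genes were at least 2-fold higher. Dnajb9 (96680_at) gave 202 units in ADX at ZT14 and 201 in ADX at ZT2, against 367 in sham at ZT14 and 114 in sham at ZT2. Night over day was thus 0.01 in ADX and 1.69 in sham on the log2 scale, and the difference between them, -1.68, was close to that of Creld2. Its second probe set, 96679_at, gave smaller values in the same order, 0.06 in ADX and 0.88 in sham. Of the 26 list genes Present on all arrays, 17 had a negative difference of day-night differences, with a median of -0.12. Among all 3889 genes Present on all arrays, 48.5% were negative, with a median of 0.01.

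Individual folding factors did not share a single pattern. Manf, a secreted ER stress-induced factor, had a log2 night over day difference of -0.21 in ADX and 0.52 in sham. The Hspa5 cochaperone Dnajb11 gave -0.67 in ADX and 0.25 in sham, and the cochaperone Dnajc3 gave values that depended on the probe set. Its brightest, 102414_i_at, gave -0.41 in ADX and -0.17 in sham, whereas 102415_r_at gave -1.15 in ADX and 0.26 in sham and 94343_at gave 0.06 in ADX and 0.34 in sham. Pdia5 went the other way, at 0.69 in ADX and 0.20 in sham. Canx, the lectin chaperone calnexin, had a probe set Present on all 4 arrays, 160180_at, at -0.12 in ADX and -0.06 in sham, and a brighter one, 94886_at, Present on the sham ZT14 array alone. Hyou1 and the brightest P4hb probe set were Absent on all 4 arrays, and the dimmer P4hb probe set, 93108_at, gave 0.19 in ADX and 0.42 in sham.

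Regulators of the unfolded protein response gave a different picture from the 7 measured genes. Of 24 listed, 15 were measured, and of the 13 Present on all arrays 3 had a negative difference of day-night differences, with a median of 0.06. The share of negative values in all 3889 genes was 48.5%. Xbp1, the transcription factor that Ire1 activates by splicing, was lower at night in both operations, with log2 -0.41 in ADX and -0.42 in sham. Splicing itself is not measured by these probe sets. Atf4 stood at 0.05 in ADX and -0.00 in sham, and Atf6 at 0.38 in ADX and 0.00 in sham. Ddit3 (Chop), the stress-induced factor linked to cell death, was the single regulator past 2-fold, with 58.4 units in ADX at ZT14 and 28.3 in ADX at ZT2, against 45.5 in sham at ZT14 and 19.6 in sham at ZT2. Its night level was thus higher in both operations (log2 1.05 in ADX and 1.22 in sham), and its ADX ZT2 signal was called Marginal. At least 2-fold higher at night were 2.54% of all measured genes in ADX and 3% in sham. Atf3 had 0.97 in ADX and 0.72 in sham, under 2-fold. Trib3 and Asns were Present on no array, and Creb3l3 had no probe set.

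ER degradation and translocation genes leaned in the direction of the 7 measured genes without reaching 2-fold. Of 44 listed, 33 were measured, and of 31 Present on all arrays 29 had a negative difference of day-night differences, with a median of -0.34 (range -0.99 to 0.10). In all 3889 genes Present on all arrays 48.5% were negative, with a median of 0.01. Sel1l, the adaptor of the Hrd1 ubiquitin ligase, had a log2 night over day difference of -0.84 in ADX and 0.14 in sham by 92870_at, and of -0.19 in ADX and 0.50 in sham by 92871_at. Edem1, which guides misfolded glycoproteins, had -0.46 in ADX and 0.05 in sham, and the translocon subunit Sec61b had -0.47 in ADX and -0.12 in sham. The ER to Golgi list (24 of 30 measured) had 0 genes past 2-fold, where 0.739% to 3% of all measured genes passed per comparison and direction. Of its 22 genes Present on all arrays, 15 had a negative difference of day-night differences, with a median of -0.09. Night over day, Kdelr2, which retrieves escaped chaperones, had log2 0.22 in ADX and 0.09 in sham. The cargo receptor Lman1 had 0.15 in ADX and 0.41 in sham. For the cytosolic and mitochondrial chaperones (23 of 28 measured), 12 of 22 Present on all arrays had a negative difference of day-night differences, with a median of -0.13. Among these, the heat shock gene Hspa1b passed 2-fold at night in both operations, at 3.58-fold in ADX and 5.64-fold in sham, while Hspa1a had log2 differences of 0.62 in ADX and 1.70 in sham. Constitutive Hspa8 gave 0.34 in ADX and 0.30 in sham, and Hsp90aa1 gave 0.21 in ADX and 0.11 in sham. Hspa1a and Hspa1b are near-identical genes, so their probe sets may share transcripts.

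**Figure D4:**
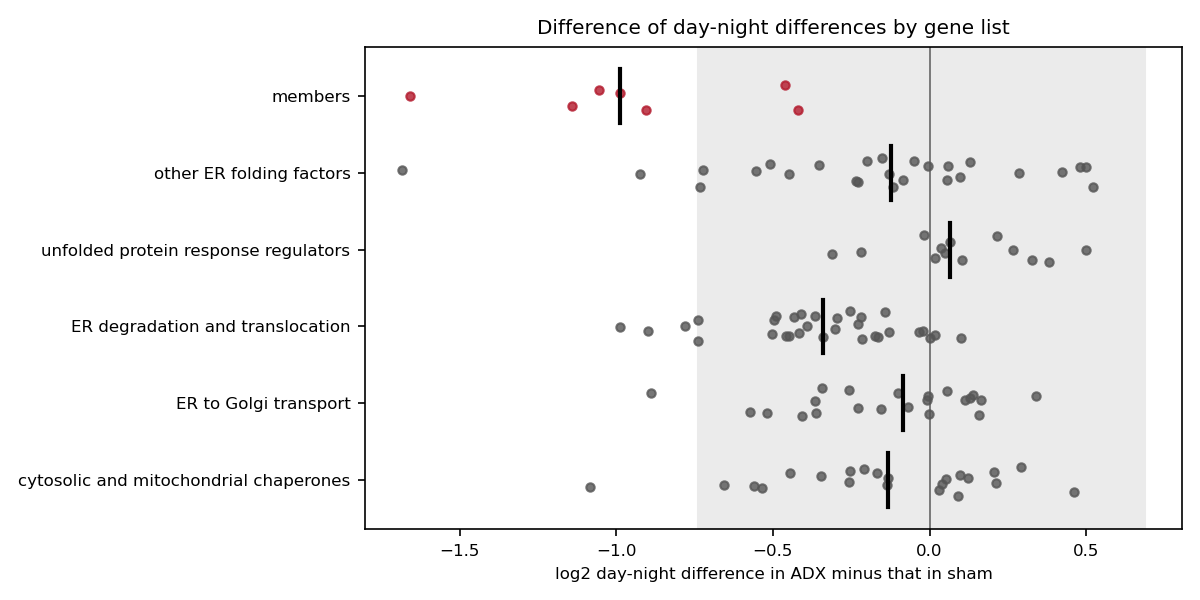
Log2 night over day difference in ADX minus that in sham (x axis) for each gene Present on all 4 arrays, by gene list, with black bars at list medians and a grey band from the 5th to the 95th percentile of the 3889 genes. The 7 measured ER genes have a median of -0.99, and the other 5 lists have medians between -0.34 and 0.06.

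By Euclidean distance between log2 signals centred on each probe set's own mean, over the 4 arrays and 4438 single-symbol probe sets Present on all of them, the gene nearest to Creld2 was Dnajb9 (distance 0.10). It was followed by Gm5364 (0.15), Il1r1 (0.20), Ifrd1 (0.25) and Ndel1 (0.28). Herpud1 lay at 0.33, then Pdia4 at 0.65, Pdia3 at 0.85, Hsp90b1 at 0.92, Hspa5 at 0.996 and Pdia6 at 1.74. Gm5364, Ifrd1 and Ndel1 read 8.42 to 24.5 units over the 4 arrays, near the 90th percentile of Absent signals (16.6 units). Their profiles are thus close to background. Nearest to Hspa5 was Hamp, the gene of the iron hormone hepcidin, at 0.03, then Iars at 0.05, the ER lumen protein Erp29 at 0.05, Smim10l1 at 0.06 and Irf7 at 0.06. Hsp90b1 lay at 0.15 and Pdia3 at 0.34. Smim10l1, at 18.4 to 23.8 units, was also close to background. Profiles with a small range, like that of Hspa5, have many near neighbours, and 4 arrays cannot separate them.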

How the data were processed

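Liver RNA was measured on 4 MG_U74Av2 arrays, grouped by the operation and time in the sample titles. Per the file headers, the authors deposited for each array single-array (absolute) Affymetrix Signals, which are linear intensities, 1 per probe set. Each comes with a deposited detection p-value, which entered here only as the call made from it, Present, Marginal or Absent. For the software, version and scaling target nothing is stated in the sources used here. The deposited value table holds the same intensities (largest difference 0). The run sheets give all arrays the same hybridisation day and fluidics station, with a wash module each.

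Each array was scaled to a common 2% trimmed mean, signals under 3.91 units were set to that floor, and values were put on the log2 scale. After scaling, 66 control probe sets were dropped. Of 12422 probe sets, 10855 had a single gene symbol and 396 several, and none was named from several. Of their gene identifiers, 10839 were in the RefSeq table of GRCm38.p6, which also gave positions and promoters. A gene's probe set with the highest mean signal stood for it. The additive fit used limma 3.58.1 (lmFit, eBayes, Benjamini-Hochberg) in R 4.3.3. Other steps used Python 3.11.15, NumPy 2.4.6, pandas 2.3.3 and Matplotlib 3.10.9. The 2-fold rule, for sham ZT14 over sham ZT2, and the time effect of the fit were tested on simulated data. At a true log2 size of 1.5 the rule recovered 94% of probe sets and called 0.28% of unchanged ones. The fit called 100% there, whereas on the 4 arrays it called 2 of 5872 probe sets for time. These shares hold for the simulated data only. A day-night difference that depends on the operation was not tested there.

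The genes and lists were chosen with earlier results of these data known. Named beside the 9 genes are list genes past 2-fold, a fixed set of pathway genes whatever their values, and the 5 nearest profiles each of Creld2 and Hspa5. Alternatives changed the scaling, the floor, the detection filter, the fold size, the gene's probe set and the fit.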

Additional observations from a re-analysis of the deposited data

Results flagged for a closer look

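Of the 7 measured genes, 5 had day-night differences of opposite sign in the ADX and sham pairs, lower at ZT14 than at ZT2 in ADX and higher in sham, where 17.6% of the 3889 genes Present on all 4 arrays had these signs and 36.9% had opposite signs either way. The ADX minus sham difference of the log2 values was -1.66 for Creld2, -1.05 for Pdia4, -0.91 for Pdia3, -0.46 for Hsp90b1 and -0.42 for Hspa5. With 1 array per group these differences were not tested. For Creld2 the ADX value was -0.05, so its opposite sign rests on almost no difference.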

How the results depend on the processing

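Of 80 values of the counts and medians under alternatives, 76 moved by at most 0.1 (log2) or 1.5 times (counts), and 4 by more. Some could not move. The 9 probe sets read at least 35.1 units and were Present on all 4 arrays. Floors of 1 and 16.6 units and the filter for Present on all arrays thus left their differences unchanged. With signals as deposited, where the median of all genes shifts by -0.17 for ADX over sham at ZT2 and by -0.12 at ZT14, the median of the 7 genes was 0.26 at ZT2 and -0.50 at ZT14. A 1.5-fold size gave counts of 2 for ADX over sham at ZT2 and 3 at ZT14, where 2-fold gave 0 in each. Among the smaller moves, quantile normalization brought the ADX ZT14 over ADX ZT2 median to -0.09 in place of -0.19. It also gave 4 genes with a 2-fold difference of day-night differences in place of 3, as did scaling to the median, with Pdia6 added. Pdia6 stood just short of 2-fold in the main setting (log2 -0.99). The share of all genes past 2-fold was not computed under these 2 scalings. The difference of day-night differences of Creld2 stayed between -1.68 and -1.61. That narrow range follows from the settings, because a factor per array moves this value alike for every gene above the floor. It does not measure scatter between arrays or animals. In the limma fit 0 of the 9 probe sets passed under any of the 7 alternatives per effect, with smallest adjusted p of 0.089 to 0.556 for time and 0.672 to 0.9998 for operation. The lowest came with a variance trend, which called 154 probe sets in place of 2. Fitting time without the operation called 11. Leaving out an array would leave no residual degrees of freedom, and no such test was run. No paired analysis was possible because each group has 1 array and the labels give no replicate numbers. Signals near background limit Calr and Hyou1.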

Other observations

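Outside the 9 genes, an exact ERSE was found in the promoters of genes that were looked at only after their values were seen. Of 37 genes with such a promoter, 12 had a single-symbol probe set, and 8 had any probe set Present on all 4 arrays, 4 of them outside the 9 genes. Ero1b, the oxidase that recharges protein disulfide isomerases, had 116 units in ADX at ZT14 and 163 in ADX at ZT2, against 176 in sham at ZT14 and 149.5 in sham at ZT2. Its night over day log2 difference was -0.49 in ADX and 0.24 in sham, and the difference between them was -0.72. The Hspa5 cochaperone Dnajc3 had a difference of -0.24 by its brightest probe set, -0.28 by 94343_at and -1.42 by 102415_r_at. Canx had -0.06 by 160180_at, and Pan2, a subunit of a deadenylase, had 0.06. The Dnajb9 probe set 96680_at had nearly the profile of Creld2 over the 4 arrays, and its other probe set, 96679_at, had a difference of -0.81 against -1.68. The Dnajb9 window held neither an exact ERSE nor an ERSE-II.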
